A study of Homo sapiens with 2 samples.

Results

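The clustered protocadherins are cell-adhesion proteins whose genes lie side by side on the long arm of chromosome 5 in an alpha, a beta and a gamma cluster. Their members were taken as the non-control array probes whose RefSeq accession belonged to a gene named PCDHA, PCDHB or PCDHG, pseudogenes included. This gave 58 probes of 50 genes, among 58201 probes and 22439 named genes on the array. The alpha cluster had 16 probes of 15 genes, the beta cluster 19 probes of 18 genes and the gamma cluster 23 probes of 17 genes. Of the 60 genes that the RefSeq table lists in the clusters, 10 had no probe matched here, which were PCDHA14, PCDHB3, PCDHB18P, PCDHGA1, PCDHGA4, PCDHGA6, PCDHGB5, PCDHGA10, PCDHGA11 and PCDHGB9P. The rule that chose the members used names alone and no measured value, but it was set with earlier results of these data known.

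RNA came from the human embryonic stem cell line H9, grown in TeSR-E8 medium. At passage 35 the study moved H9 cells from vitronectin to Matrigel, an extracellular matrix preparation. The study's account of the arrays does not name the matrix of either sample. Substate 1 (passage 35) and substate 2 (passage 50) were told apart in the study by colony shape and staining. Substate 1 colonies were typical in shape, strong in the pluripotency epitope R-10G and low in the intermediate filament vimentin. Substate 2 colonies had wide spaces between the cells, weak R-10G and high vimentin. Each substate was measured on 1 single-colour array, so passage, and matrix or time on it where these differed, cannot be told apart from substate. For the same reason no difference has a replicate check and no test between the substates could be made. Both groups were bulk cultures of 1 cell line, in which fewer cells that express a gene and less RNA per cell cannot be told apart.

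Protocadherins of the clusters sit on the surface of neurons and bind copies of themselves on neighbouring cells, and each neuron uses its own mix of them as an identity code. In the alpha and gamma clusters every gene contributes its own variable first exon, which is spliced to constant exons shared by the cluster, whereas each beta gene is a single exon. Choice among the promoters depends on DNA methylation and on CTCF, a zinc finger protein that binds the unmethylated promoters and loops them to distant enhancers together with the cohesin ring.

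The promoters carry short conserved elements, and the stretches around them are printed for the genes on which the results turn. Promoter sequences of 250 bases before to 50 bases after the gene start were taken from RefSeq (GRCh38.p14, all on the + strand, printed 5′ to 3′), and 40 of the 50 members had an entry. PCDHA3, PCDHA13, PCDHB1-AS1, PCDHB6, PCDHB11, PCDHB17P, PCDHB19P, PCDHGA12, PCDHGB8P and PCDHGC5 had none. The first 4 stretches belong to the beta genes that were 2-fold or more lower in substate 2 on at least 1 probe, and the other 3 to beta genes whose difference was within its scanner error. Capitals mark the beta motif GGTGGCGCT.
PCDHB2 at chr5:141094525-141094584: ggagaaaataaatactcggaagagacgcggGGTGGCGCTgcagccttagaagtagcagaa
PCDHB5 at chr5:141135160-141135205: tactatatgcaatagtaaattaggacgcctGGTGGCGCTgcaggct
PCDHB8 at chr5:141177758-141177799: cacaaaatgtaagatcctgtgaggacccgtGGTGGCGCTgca
PCDHB15 at chr5:141245295-141245354: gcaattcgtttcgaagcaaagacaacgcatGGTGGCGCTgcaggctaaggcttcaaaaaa
PCDHB10 at chr5:141192280-141192339: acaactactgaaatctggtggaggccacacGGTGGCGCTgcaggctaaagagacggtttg
PCDHB12 at chr5:141208624-141208683: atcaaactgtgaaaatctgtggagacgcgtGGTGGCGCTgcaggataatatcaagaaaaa
PCDHB14 at chr5:141223244-141223303: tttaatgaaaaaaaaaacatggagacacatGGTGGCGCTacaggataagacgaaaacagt

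PCDHB1, the first beta gene, is printed as the beta promoter without an exact match to the motif, with the 60 bases before its start. It holds the letters ggtggtgct, which differ from the motif in a single base, and the search allowed no mismatch.
PCDHB1 at chr5:141051314-141051373: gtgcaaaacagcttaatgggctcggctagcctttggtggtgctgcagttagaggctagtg

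A lower and a nearly level gene of each of the other clusters are shown in the same way. Capitals mark GATGTCGCT in the alpha genes PCDHA6 (lower) and PCDHA4 (level), and CGCTGTTNA in the gamma genes PCDHGA3 (lower) and PCDHGA8 (level). Each label rests on a single probe, and whether that probe reads the named gene alone is uncertain. PCDHGA8 had another probe, which was above background on neither array.
PCDHA6 at chr5:140827878-140827937: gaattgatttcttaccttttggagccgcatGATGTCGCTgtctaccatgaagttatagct
PCDHA4 at chr5:140806960-140807019: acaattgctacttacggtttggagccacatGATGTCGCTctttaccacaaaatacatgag
PCDHGA3 at chr5:141343753-141343812: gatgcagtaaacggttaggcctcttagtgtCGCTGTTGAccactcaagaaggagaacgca
PCDHGA8 at chr5:141392554-141392613: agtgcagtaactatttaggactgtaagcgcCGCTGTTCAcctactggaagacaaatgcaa

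These letters were chosen from the promoters themselves and were searched on both strands (reverse complements AGCGACATC, AGCGCCACC and TNAACAGCG). The beta motif was in 13 of the 14 beta promoters with an entry and in 0.501% of all 35116 promoters of the table. Counted from the gene start, with -1 for the base before it, the first base of the beta motif lay between -84 and -2, and in PCDHB8 the motif ran across the start. The alpha motif was in 9 of 13 alpha promoters and in 0.105% of all promoters. The gamma motif was in 10 of 20 gamma promoters, all of them of A-type genes, in 1 beta promoter and in 0.39% of all promoters. All 3 motifs hold the letters CGCT, over which they could overlap, and these were in 70.0% of all promoters. Of the beta genes with the motif, 11 were measured on both arrays, and their differences ran from -1.40 to 0.09 on the log2 scale. The element was therefore shared by genes that were lower in substate 2 and genes that were not.

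Signals are given as the processed intensity of the scanner software, in array units, and differences as substate 2 minus substate 1 on the log2 scale after each array was set to its 75th percentile. The error printed after ± is that of the scanner software's own model for a single spot, propagated to the difference. It leaves out any variation from culture, RNA preparation or labelling. Every member probe was printed once, none was saturated, and a probe called measured was marked well above background on both arrays. Where a probe is called above background, this mark is meant. On the arrays as a whole, 57.4% of spots were well above background for substate 1 and 54.7% for substate 2. Each alpha and gamma probe was named by its accession. Probe positions were not used here, so whether a probe reads 1 gene or a stretch shared with near-identical neighbours is uncertain.

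Transcripts of the clusters were detected in both substates. Of the 58 member probes, 35 were well above background on both arrays, 5 on the substate 1 array only, 1 on the substate 2 array only and 17 on neither. Over all 58201 probes these counts were 29883, 2455, 828 and 25035. Probes above background on the substate 1 array only were thus the more frequent kind over the whole array too. The alpha cluster had 12 measured probes and 4 on neither array, and the beta cluster had 13 and 6. In the gamma cluster 10 probes were measured, 6 were above background on 1 array only and 7 on neither, so all probes above background on 1 array only were gamma probes. The plot of signals by gene shows both arrays for every probe.

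**Figure D1:**
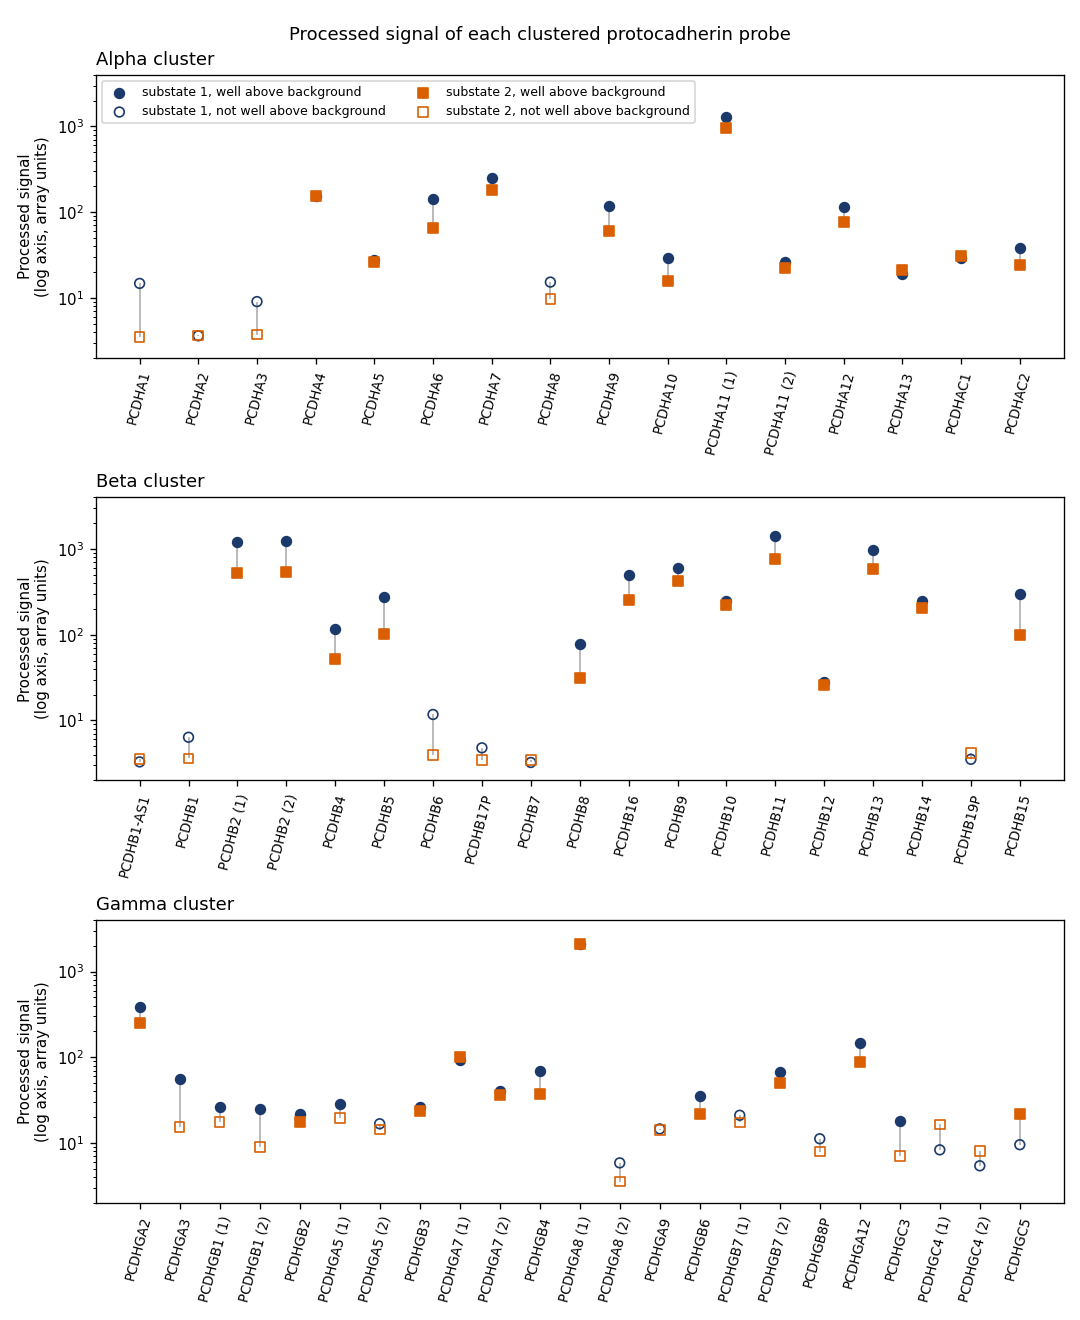
Processed signal (log axis, array units) of all 58 member probes on the substate 1 array (circles) and the substate 2 array (squares), by cluster and in order along the chromosome. Filled symbols were well above background and open symbols were not, and in the beta cluster the square of every filled pair lies at or below its circle; signals are shown before scaling, and the 75th percentile of all probes was 313.7 for substate 1 and 275.4 for substate 2.

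Measured members were mostly lower in substate 2, and none was higher by more than 2 times its error. The 32 genes measured on both arrays had a median difference of -0.41, against 0.08 over all 16001 genes measured in the same way. Of these 32 genes 23 were below 0, whereas 40.2% of all genes were. By probe, 25 of the 35 measured were below 0, beside 44% of all measured probes. By cluster, the gene medians were -0.28 in the alpha cluster (11 genes), -0.73 in the beta cluster (12 genes) and -0.25 in the gamma cluster (9 genes). Under the scalings and background corrections tried, the gene median stayed between -0.34 and -0.03 for alpha, between -0.79 and -0.51 for beta and between -0.31 and -0.07 for gamma. The alpha probe median of -0.27 became 0.013 with normexp correction, which compresses dim signals.

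More than 2 times its scanner error separated the arrays for 14 of the 35 measured member probes, all of them lower in substate 2. Over all measured probes 9.94% were lower and 10.2% were higher by this rule. The 14 comprised 9 beta probes, 2 alpha probes and 3 gamma probes.

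By the 2-fold rule, which leaves out probes near background on both arrays, 5 member probes were lower and 0 were higher. With normexp correction 0 member probes were 2-fold lower. The background was 1.67% lower and 1.55% higher of 33166 probes. Of the 35 measured member probes 4 were 2-fold lower and 0 higher, beside 1.26% lower and 0.85% higher of all measured probes. The Z-score used in the study, which runs over all probes, counted 6 member probes lower and 1 higher, beside 3.3% and 3.03% of all 58201 probes, or 7 of 58 beside 6.33% in either direction. Its limits lay at 2.29-fold lower and 2.53-fold higher. Of its 6 lower calls, those of PCDHA1 and PCDHB6 were on neither array above background and carry no fold, those of PCDHGA3 and PCDHGB1 were above background in substate 1 only, and those of PCDHB5 and PCDHB15 were measured on both arrays.

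**Figure D2:**
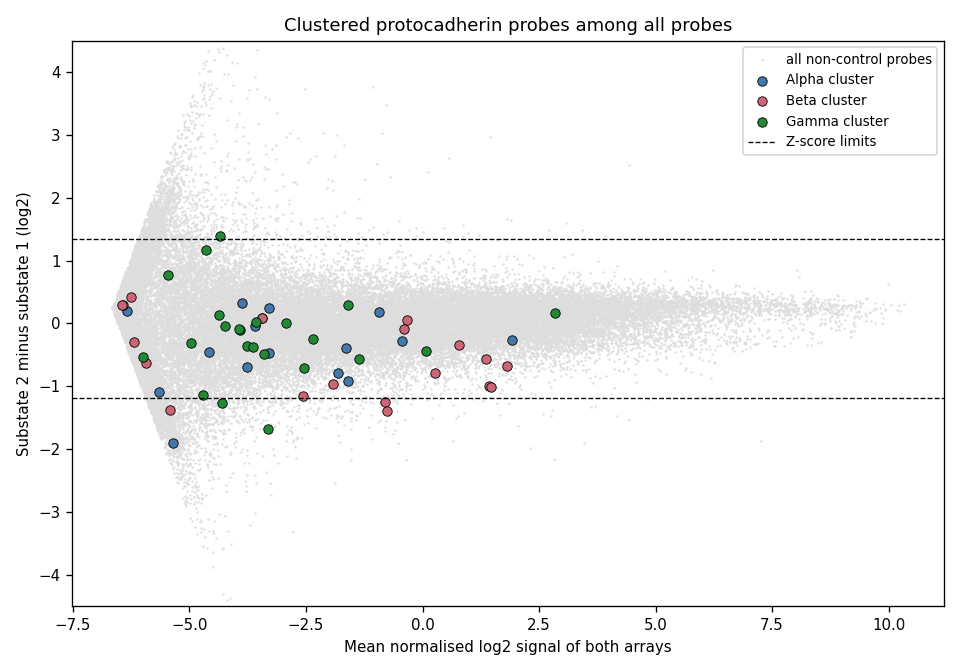
Difference (substate 2 minus substate 1, log2) against the mean normalised log2 signal of both arrays, for all non-control probes (grey) and the 58 member probes (coloured by cluster), with the Z-score limits dashed; 19 grey probes lie outside the plotted range. The member probes beyond the limits are 6 below and 1 above, and the wide spread at the left edge is that of probes near background.

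The beta cluster held the members with the widest gaps that were measured on both arrays. The PCDHB15 probe read 302 for substate 1 and 100 for substate 2, a difference of -1.40 ± 0.21 (2.64-fold lower, Z-score -2.33). The PCDHB5 probe gave 279 and 103, a difference of -1.25 ± 0.21 (2.38-fold lower, Z-score -2.09). PCDHB8 went from 78.8 to 31.2, a difference of -1.15 ± 0.26 (2.22-fold lower). In these 3 genes, each a single-exon receptor of the same adhesion family, the substate 1 array was the brighter one by more than 2 times the error.

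PCDHB2 was read by 2 probes. The first gave 1195 and 528, a difference of -0.99 ± 0.20. The second gave 1228 and 533, a difference of -1.02 ± 0.20. The probes thus lay 0.02 apart on the log2 scale, and only the second reached the 2-fold rule.

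Among further beta genes, PCDHB4 had signals of 115 and 52.0, a difference of -0.96 ± 0.24. PCDHB16 had 497 and 253, a difference of -0.79 ± 0.21. PCDHB11 had 1404 and 770, a difference of -0.68 ± 0.20. Each of these was lower in substate 2 by more than 2 times its error, and so was PCDHB13, with 979 and 583 (-0.56 ± 0.20).

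The remaining measured beta genes were within 2 times their error. PCDHB9 had signals of 605 and 420, a difference of -0.34 ± 0.20. PCDHB14 had 248 and 204, a difference of -0.09 ± 0.21. PCDHB10 had 245 and 223, which after scaling is a difference of 0.05 ± 0.21, and PCDHB12 had 28.0 and 26.1 (0.09 ± 0.35). The shift was therefore uneven along the cluster, and between the neighbours PCDHB10 and PCDHB11 the differences themselves lay 0.73 apart with an error of 0.29 (PCDHB11 minus PCDHB10, -0.73).

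Along the chromosome the first measured beta genes, PCDHB2, PCDHB4, PCDHB5, PCDHB8 and PCDHB16, all had differences of -0.79 or below. They were followed by PCDHB9 to PCDHB14, which alternated between lower and nearly level. PCDHB15, the last beta gene, had the widest gap. The other 6 beta probes, those of PCDHB1, PCDHB6, PCDHB7, the antisense RNA PCDHB1-AS1 and the pseudogenes PCDHB17P and PCDHB19P, were above background on neither array. PCDHB6, whose 11.7 in substate 1 and 3.97 in substate 2 passed the lower Z-score limit, had an error of 1.52 on a difference of -1.38. Its call therefore lay within the error of the spot.

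**Figure D3:**
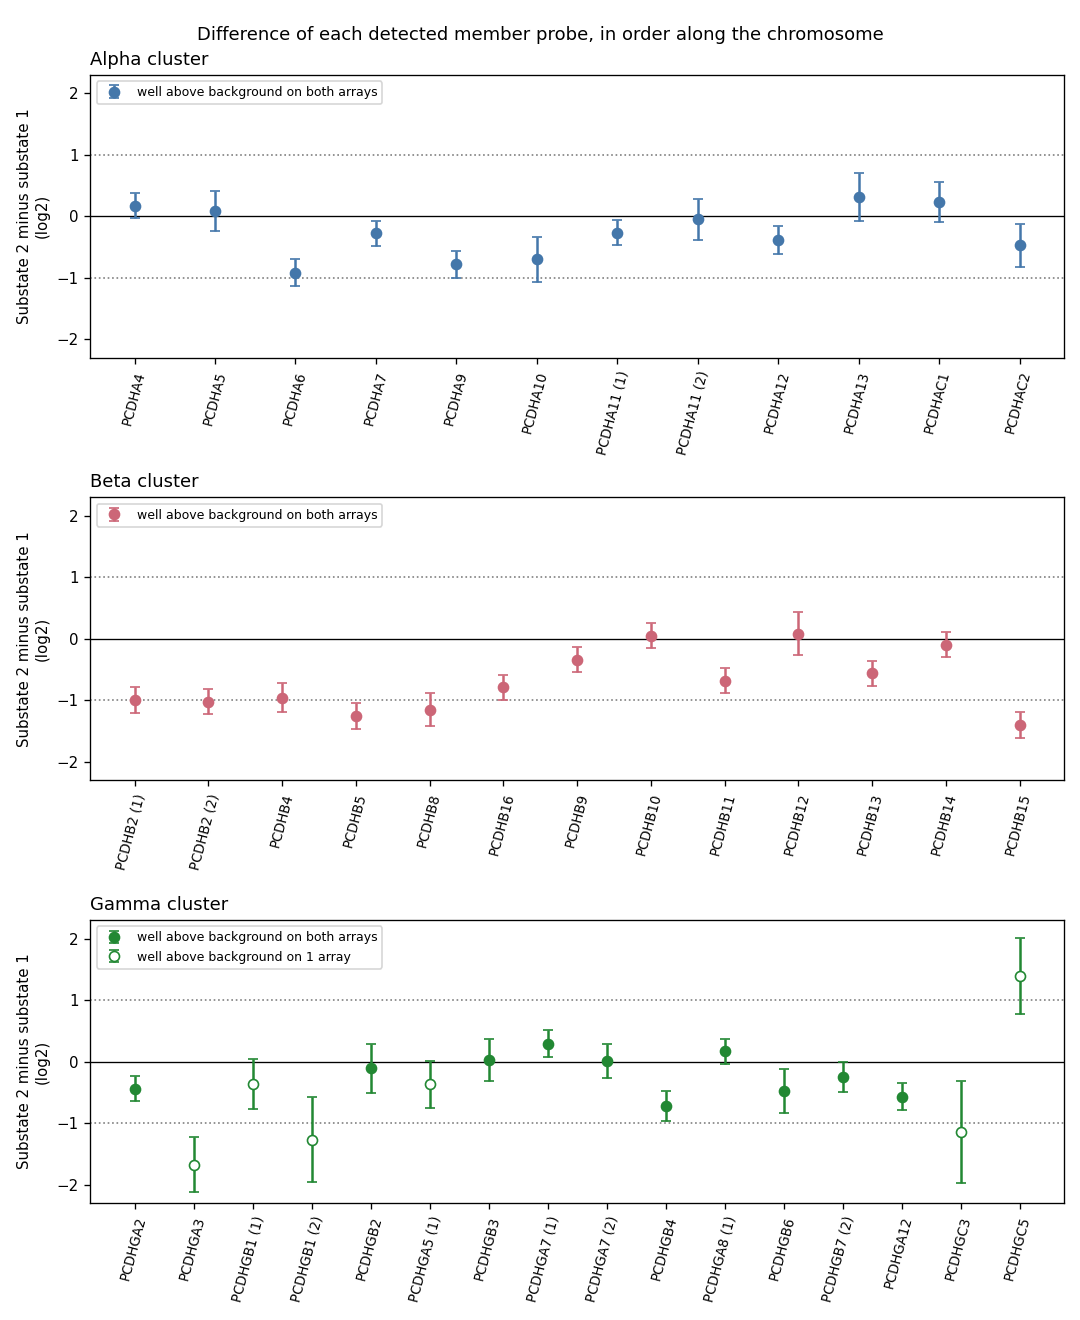
Difference between the substates (log2) of each member probe well above background on at least 1 array, in order along the chromosome, with bars for the scanner error and dotted lines at 2-fold. Filled points were measured on both arrays, open points on 1 array only (there the point is the measured difference, not the bound), and no filled point lies above the upper line.

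In the alpha cluster the differences were smaller and of both signs. PCDHA6 gave 142 in substate 1 and 65.9 in substate 2, a difference of -0.92 ± 0.22. PCDHA9 gave 117 and 59.9, a difference of -0.78 ± 0.22. These were the 2 alpha genes below 0 by more than 2 times the error, and neither reached 2-fold. Both are variable-exon genes of the neuronal type, and PCDHA9 had none of the printed motifs in its promoter window whereas PCDHA6 had the alpha motif.

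Other alpha genes below 0 were within 2 times their error. PCDHA10 gave 29.4 and 15.9, a difference of -0.70 ± 0.37. PCDHA12 gave 115 and 77.4, a difference of -0.39 ± 0.23. PCDHA7 gave 253 and 183, a difference of -0.28 ± 0.21. All 3 had the higher signal in substate 1.

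PCDHA11 was read by 2 probes that matched different transcripts. One gave 1304 and 953, a difference of -0.27 ± 0.20. The other gave 26.4 and 22.4, a difference of -0.05 ± 0.33. Both were slightly lower and neither passed 2 times its error.

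The alpha genes above 0 were likewise within their errors or close to them. PCDHA4 had signals of 154 and 152, a difference of 0.18 ± 0.21. PCDHA5 had 27.9 and 26.1, a difference of 0.09 ± 0.32. PCDHA13 had 19.1 and 20.9, a difference of 0.32 ± 0.39. PCDHA1, PCDHA2, PCDHA3 and PCDHA8 were above background on neither array, and PCDHA1, with signals of 14.8 and 3.46, was the alpha call of the Z-score.

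The C-type genes stand at the end of the alpha and gamma clusters and most of them are expressed evenly across neurons rather than chosen at random as the other members are. PCDHAC1 gave 29.4 and 30.5, a difference of 0.24 ± 0.33. PCDHAC2 gave 37.7 and 23.9, a difference of -0.47 ± 0.34, which turned to 0.060 with normexp correction. The 2 measured C-type genes thus had opposite signs, and both were within 2 times their error.

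In the gamma cluster PCDHGC3 gave 17.9 in substate 1, where it was above background, and 7.09 in substate 2, where it was not, so that it was at least 1.04-fold lower. PCDHGC4, which is needed for the survival of neurons, was above background on neither array with either of its probes, whose signals were 8.33 and 16.5 and, for the second, 5.43 and 8.14. PCDHGC5 gave 9.56 in substate 1, not above background, and 22.0 in substate 2, at least 1.73-fold higher with a Z-score of 2.08. With normexp correction its difference was 0.44 and the Z-score call was lost. It was the member called higher by the Z-score and the probe above background in substate 2 only.

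Among the other gamma genes, which fall into an A and a B type by sequence and carry the same kind of extracellular cadherin repeats, PCDHGA3 had the lowest Z-score, -2.76. Its probe gave 56.1 in substate 1 and 15.4 in substate 2, where it was not above background, a difference of -1.67 ± 0.44 (3.19-fold lower). With normexp correction, which adds an offset to the signals, its difference was -0.38 and the 2-fold call was lost. PCDHGB4 gave 69.0 and 36.9, a difference of -0.72 ± 0.25. PCDHGA12 gave 148 and 87.4, a difference of -0.57 ± 0.22. PCDHGA2, with 387 and 250 (-0.44 ± 0.21), was the third measured gamma gene lower by more than 2 times its error.

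PCDHGB1 was read by 2 probes, both above background in substate 1 only. The first gave 26.0 and 17.7, a difference of -0.36 ± 0.41 (1.29-fold lower), which was within its error. The second gave 24.6 and 8.99, at least 1.44-fold lower, with a Z-score of -2.12. Both probes pointed the same way, but the Z-score called the second probe alone.

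Several gamma genes did not differ by more than 2 times their error. PCDHGA8 gave 2112 and 2083, a difference of 0.17 ± 0.20, while its other probe, for a different transcript, was above background on neither array (5.87 and 3.56). PCDHGA7 gave 93.4 and 100 with one probe (0.29 ± 0.22) and 40.9 and 36.2 with the other (0.01 ± 0.27). PCDHGB3 gave 26.2 and 23.5, a difference of 0.03 ± 0.35. The first PCDHGA7 probe exceeded its error but not 2 times its error.

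PCDHGB2 gave 21.6 and 17.6 (-0.11 ± 0.40). PCDHGB6 gave 35.1 and 22.1 (-0.48 ± 0.36). PCDHGB7 gave 67.4 and 49.8 with its measured probe (-0.25 ± 0.24). All 3 were below 0 and none by more than 2 times its error. PCDHGA5 gave 28.7 and 19.5 with a probe that lay above background in substate 1 alone (-0.37 ± 0.38, 1.29-fold lower). That difference was within its error, and the other PCDHGA5 probe was above background on neither array. PCDHGA9 and the pseudogene PCDHGB8P were above background on neither array.

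Of the 8 genes with 2 probes, 3 had both probes measured on both arrays. Their probes lay 0.02 apart on the log2 scale in PCDHB2, 0.22 apart in PCDHA11 and 0.28 apart in PCDHGA7, with the same sign in each gene.

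The genes around the clusters were examined to see whether the shift covered the whole region. The 21 flanking genes consisted of TAF7, a general transcription factor subunit that lies between the beta and gamma clusters, and the 10 nearest detected genes on each side. PCDH1 is among them and also counts among the protocadherins outside the clusters. Their median difference was 0.24, with 6 lower and 15 higher than 0, whereas 40.2% of all genes were below 0. Under the scalings and background corrections tried, the flanking median ran from 0.10 to 0.28, and that of all genes from 0.02 to 0.13. TAF7 gave 8898 and 8897, a difference of 0.19 ± 0.20. HDAC3, a histone deacetylase just beyond the gamma cluster, gave 6957 and 7216, a difference of 0.24 ± 0.20. On the alpha side ZMAT2, a splicing factor, gave 3943 and 4443 (0.36 ± 0.20). The lowest flanking gene was FCHSD1, on the gamma side, with 113 and 76.9 (-0.37 ± 0.22). None of the 26 flanking probes was 2-fold lower, beside 1.26% of all measured probes, so a list of this size would hold few or none. The flanking probe of the vault RNA VTRNA1-1, with 23.7 and 49.5, was 2-fold higher (1.25 ± 0.28, 2.38-fold), beside 0.85% of all measured probes. No other flanking probe was.

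Protocadherins outside the clusters, which lie scattered over other chromosomes except for PCDH1 and PCDH12, were also mostly lower where measured. Of the 7 such genes measured on both arrays, 5 were below 0, with a median of -0.22. Over all genes 40.2% were below 0 and the median was 0.08, and 7 genes are few for a comparison of shares. The other 2 were PCDH11X and its near-identical copy PCDH11Y, whose probes cannot be told apart, and the higher of them was at 0.33. Without these 2 genes the median was -0.36 and all 5 measured genes were below 0. That none was then above 0 follows from leaving them out. PCDH20 gave 67.4 and 26.1, a difference of -1.18 ± 0.31 (2.27-fold lower). PCDH18 had 2 probes, one with 62.1 and 32.2 (-0.76 ± 0.25) and the other with a difference of -0.55 ± 0.22. PCDH8 moved the other way, from 15.6, not above background, to 29.5, at least 2.15-fold higher. No other probe of this list was 2-fold apart, beside 1.67% lower and 1.55% higher of all probes above background on at least 1 array. A PCDH15 probe passed the upper Z-score limit, as did 3.03% of all probes, but it was above background on neither array.

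The regulators that act on the clusters had a median close to that of all genes, but a smaller share of them lay below 0. Their 24 genes, covering CTCF, cohesin and its loaders, DNA methyltransferases, TET dioxygenases and silencing factors, had a median of 0.12, beside 0.08. Of these regulators 3 were below and 21 above 0, whereas 40.2% of all genes were below 0. CTCF gave 878 and 935, a difference of 0.28 ± 0.20. DNMT3B, the methyltransferase that marks protocadherin promoters in the early embryo, gave 35990 and 36267, a difference of 0.20 ± 0.20. DNMT3A had 3 probes, which differed by 0.49, 0.36 and -0.07, each with an error of 0.20 or 0.21. None of these probes, for factors that bind or methylate the promoters, was 2-fold apart. SMCHD1, a silencer of the clusters, had 3 probes between -0.02 and 0.15.

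The regulator that stood apart was UHRF1, which brings the maintenance methyltransferase DNMT1 to newly copied DNA. One UHRF1 probe gave 1772 and 3253, a difference of 1.06 ± 0.20 (2.09-fold higher). The other gave 341 and 609, a difference of 1.02 ± 0.20 (2.03-fold higher). DNMT1 itself gave 2242 and 2241, a difference of 0.19 ± 0.20. Thus 2 of the 47 regulator probes, 44 of them measured, were 2-fold higher, both of UHRF1, and 0 were 2-fold lower. Of all measured probes 0.85% were 2-fold higher and 1.26% lower.

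Proteins that act downstream of the clustered protocadherins were measured on both arrays for all 19 genes with a probe. This list held the kinases PTK2 and PTK2B, which the alpha and gamma tails inhibit, the actin-regulating WAVE complex and ADAM10, a protease that cuts the protocadherins. Its median was 0.04, with 9 genes below and 10 above 0, and no probe reached 2-fold. Over all genes the median was 0.08 and 40.2% were below 0. Of all measured probes 1.26% were 2-fold lower and 0.85% higher, so a list of 26 probes would hold few or none. Between scalings the median of the list ran from -0.02 to 0.08, so it had no settled sign. PRKCA, a kinase of the same pathway, gave 859 and 1301, a difference of 0.79 ± 0.20, the highest of the list.

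**Figure D4:**
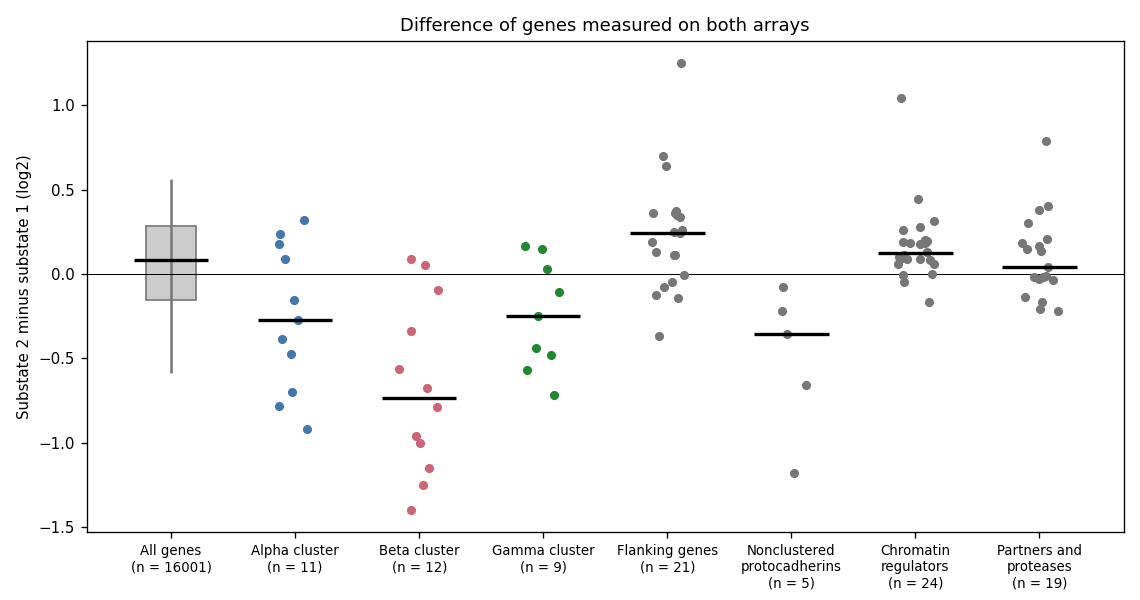
Difference (substate 2 minus substate 1, log2) of each gene measured on both arrays, for the 3 clusters and the comparison lists, with bars at the medians. For all 16001 genes the box spans the 25th to 75th and the whisker the 5th to 95th percentile. Nonclustered protocadherins are shown without PCDH11X and PCDH11Y, which were both above 0. The beta genes have the lowest median, -0.73, and the flanking genes the highest, 0.24.

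Markers of other cell types moved between the arrays beside these differences, and their part in the protocadherin result was not tested. Vimentin was higher in substate 2 (2.53 ± 0.20) and the epithelial cadherin CDH1 was lower (-1.47 ± 0.20), in the direction of the substate labels. The 7 pluripotency markers measured lay between 0.07 and 0.42 by gene, with summed signals of 352140 and 367163. Of 9 neural ectoderm probes, 3 were measured on both arrays, 2 in substate 2 only and 4 on neither. Their summed signals were 7299 and 8619, with LHX2 at 86.7 and 381 and POU3F2 at least 13.3-fold higher, while the 3 probes of PAX6 were above background on neither array. Of 9 neuron probes 8 were measured, with 5 of 6 genes above 0, a gene median of 0.43 and summed signals of 7819 and 9594. Over all genes 40.2% were below 0. The neuron gene below 0 was SYT1, whose probes differed by -0.27 ± 0.20 and by -1.22 ± 0.31 (2.33-fold lower). All 5 mesendoderm probes were above background on neither array. Of 6 fibroblast probes 4 were above background on neither array, and the measured ones, of the collagen genes COL1A1 (-0.49 ± 0.20) and COL1A2 (-0.50 ± 0.20), were lower in substate 2, with summed signals over the list of 4207 and 2636. The measured neural ectoderm genes, NES and LHX2, thus had the higher value in substate 2 after scaling. So did the measured neuron genes other than SYT1, though SNAP25, at 0.16 ± 0.21, was within its error. The clustered protocadherins, whose products act in neurons, had mostly the lower value.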

How the data were processed

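RNA of each substate was hybridised to 1 single-colour Agilent array (SurePrint G3 Human GE). The authors deposited the scanner output, with an intensity per spot. As the file headers state, Agilent Feature Extraction 11.5.1.1 (protocol GE1_1105_Oct12) subtracted background and flagged spots that are well above background, saturated or outliers. They also deposited a matrix of log2 values, which differed from the values computed here by 1 constant per array, within 0.01, for 100% of the 58201 probes.

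The processed intensity was set to at least 1, outlier spots were dropped, log2 values were averaged over the spots of each probe, and the 75th percentile of each array was subtracted. The Z-score was the difference minus its mean over all probes (0.07), divided by its SD (0.63), with a limit of 2. A probe above background on 1 array was given a bound, written as at least N-fold. Its dim side was the larger of the probe's own value and the lowest detected signal of that array. Where the own value was the larger, the bound is the measured fold itself, printed with its error and without "at least". The bounds make no allowance for the scanner error. Probes above background on neither array have no fold. Gene values are means over the probes measured on both arrays. Among 291 replicated probes the median SD between spots was 0.046 and 0.052 on the log2 scale, and 0.07 for a difference; the number of arrays limits the precision further.

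Probes were named by RefSeq accession without version in a RefSeq gene table of GRCh38.p14, through which 31104 of 58201 (53.4%) were matched. The array was annotated on hg19, so the table gave only names and gene order. The members and the gene lists were chosen with earlier results of these data known, and the motifs after reading the promoters. By rule, every member may be named, with values in full at least for members past a limit, the 5 with the highest signal in each cluster and the C-type genes, and from the lists for genes past a limit and CTCF, DNMT3A, DNMT3B and SMCHD1. The other flanking, protocadherin, kinase and marker genes, and DNMT1, were named after their values were seen. The calling steps were tested on simulated data. Alternatives were other scalings, normexp correction, the deposited matrix, outlier spots kept, other Z-score bases and detection by a second scanner flag. Python 3.11.15, R 4.3.3 and limma 3.58.1 were used.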

Additional observations from a re-analysis of the deposited data

How the results depend on the processing

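With 1 array per substate no replicate could be left out, and no result here has a test. No paired analysis was possible because 1 array stood for either substate. The gene median of all members stayed below 0 under every scaling and background correction tried (-0.47 to -0.21), while that of all genes ran from 0.02 to 0.13. Normexp correction (offset 50), which compresses dim signals, changed most. It gave 0 higher and 12 lower Z-score calls (alpha 2, beta 9, gamma 1, and 0 gamma higher), 0 members 2-fold lower in all, in the beta and in the gamma cluster, an alpha median of 0.013 by probe and -0.034 by gene, a beta median of -0.57 by probe and -0.51 by gene, and 0.060 for PCDHAC2. PCDHB5 was then at -0.76 and PCDHB15 at -0.94, PCDHB8 at -0.46, PCDHGA3 at -0.38 and PCDHGC5 at 0.44. This alternative changed the background model, the offset and the spot signal together, and which of them ended the 2-fold calls was not tested. Scaling the Z-score by the median absolute deviation gave 2 higher (both gamma) and 20 lower Z-score calls (alpha 5, beta 10, gamma 5). The Z-score over probes measured on both arrays gave 0 higher calls, also 0 in the gamma cluster, and alpha 2, beta 7 and gamma 0 lower ones, and that over probes above background on at least 1 array gave 0 alpha lower calls. Quantile normalisation and loess centring (span 0.3) each gave 1 gamma lower call. Detection by the second scanner flag, positive and significant, gave 2 higher 2-fold calls (both gamma) and 10 lower ones (alpha 2, gamma 3). Of the counts and medians under the alternatives, 221 moved by at most 1.5 times (counts) or by less than 0.22, the median scanner error of a member difference (medians). A further 31 moved more, and 1, the alpha probe median, changed sign with a move of at least that error. Smaller moves across 0, as in the list of partners and proteases, are counted among the 221. Leaving PCDH11X and PCDH11Y out of the nonclustered list was chosen after seeing the data. The match by gene symbol was not run, since the symbol column was not used here, and normexp took the median spot signal. Signal over background limits the 17 member probes above background on neither array, which carry no fold.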
